A study of Mus musculus with 6 samples.

Results

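Embryonic stem cells (ESC) were set against mouse embryonic fibroblasts (MEF), 2 of the 6 RNA sequencing libraries of a study of induced pluripotent stem cells (iPSC). Each of the 2 cell types had 1 library, so the comparison rests on 2 members of 6 samples, chosen by their labels (B6 and MEF). Differences between them have no replicate check and are given with no p-value. The ESC library is titled B6 with the source name B6/blu. Its cells grew in M15 medium with leukemia inhibitory factor, on primary MEF feeder cells whose division had been stopped with mitomycin C. The MEF library came from fibroblasts kept in serum medium with no such factor and no feeder layer named. No genotype, strain, age, passage, treatment or sex was given for either sample, and it is not stated whether the MEF library and the feeders came from the same cells. The other 4 libraries were iPSC lines, control lines 3 and 7 and palmitoylcarnitine (PC) lines 5 and 13, and they served here only to show how far libraries of like cells differ.

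Mouse ESC are derived from the inner cell mass of the blastocyst. A network of transcription factors around Pou5f1 (Oct4), Sox2, Nanog and Esrrb holds them undifferentiated, and they divide fast with a short G1 phase and grow as compact epithelial colonies. Embryonic fibroblasts are mesenchymal cells of the mid-gestation body wall and limbs that lay down collagen matrix. Forced expression of Pou5f1, Sox2, Klf4 and Myc converts fibroblasts to pluripotent stem cells.

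Levels are RPKM, reads scaled to gene length and library size, as the authors deposited them. The ESC library held 27.9 M assigned reads and the MEF library 28.0 M, on 17201 and 16326 genes. Differences are log2(RPKM + 1) in ESC minus log2(RPKM + 1) in MEF, which understates the difference of genes of low level. Of 19330 genes, 1240 (6.41%) were at least 4-fold higher in ESC on this scale and 1318 (6.82%) at least 4-fold higher in MEF. The median difference of all genes was 0.00, and 0.03 over the 13479 genes with an RPKM of at least 1 in either library. Across those 13479 genes the levels in the 2 libraries correlated with r = 0.61 (Pearson, log2(RPKM + 1)), a description over genes, which are not independent replicates. All 2558 genes past 4-fold (13.2%) differed by more than the whole range of that gene over the 4 iPSC lines, as did 71.4% of all genes. For the genes past 4-fold this was nearly fixed in advance. They were picked for a difference of at least 2, and the 95th percentile of the iPSC range was 0.82 over all genes. Genes near 0 in every iPSC line have almost no range, so the range does not replace the missing replicates of ESC and MEF. The median iPSC range was 0.25 over all genes, against a median absolute ESC to MEF difference of 0.61.

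**Figure D1:**
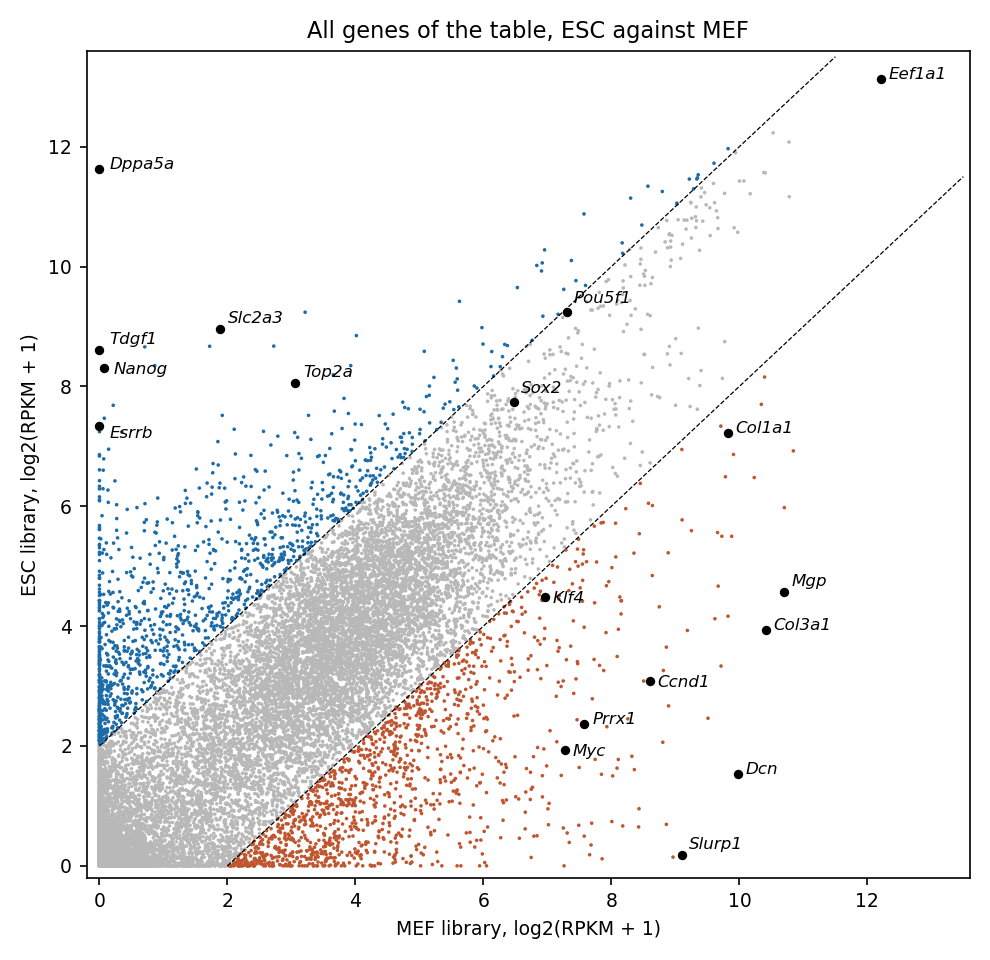
Each point is 1 of 19330 genes, with its level in the MEF library on the horizontal axis and in the ESC library on the vertical axis, both as log2(RPKM + 1). Blue and orange points lie beyond the dashed 4-fold lines, 1240 toward ESC and 1318 toward MEF, and Pou5f1 and Sox2 lie between the lines.

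The labelled cell types were checked on their defining markers. All 7 ESC markers (Nanog, Esrrb, Pou5f1, Sox2, Zfp42, Tfcp2l1 and Dppa5a) stood at 64.2 RPKM or more in ESC, and 5 of them were at least 4-fold higher there. The exceptions, Pou5f1 and Sox2, were high in MEF as well. All 7 fibroblast markers (Col1a1, Col1a2, Col3a1, Thy1, Pdgfrb, Postn and S100a4) were at 66.8 or more in MEF and at least 4-fold higher there. In ESC the same fibroblast markers ran from 2.74 to 149.0. The red cell markers Hbb-bs, Hba-a1 and Alas2 were at 0.45 or below in both libraries. Of 4 endothelial markers Cdh5, Kdr and Emcn were at 0.33 or below in both, and Tek was at 5.39 in ESC and 47.7 in MEF. In the endothelial list of 12 genes 2 were at least 4-fold higher in MEF (Tek and Erg) and 1 in ESC (Egfl7).

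The pluripotency network divided into genes that MEF lacked and others that MEF carried. Nanog, a homeobox factor (chromosome 6, 122707489 to 122714633, GRCm38), stood at 316.1 RPKM in ESC on 19628 reads and at 0.048 in MEF on 3 reads, a ratio of 6556 (95% counting interval 2243 to 31793). Esrrb, an orphan nuclear receptor (chromosome 12, 86361117 to 86521628), was at 161.7 in ESC with 0 reads in MEF, at least 6500-fold higher against a floor of 3 reads. Dppa5a, an RNA-binding protein of early embryos (chromosome 9), was the most unequal gene of the table at 3147 against 0. Tdgf1, the Nodal co-receptor Cripto, was at 386.8 against 0. Zfp42 (67.2), Utf1 (48.1), Dppa4 (47.9), Nr0b1 (35.7) and Lin28a (26.9) likewise had 0 reads in MEF. Leaving out Pou5f1, Sox2 and Klf4, the pluripotency list had 38 genes. Of these, 33 were at least 4-fold higher in ESC and 19 had 0 reads in MEF. Their median level was 33.5 in ESC and 0.0070 in MEF. Intervals here and below are exact (Clopper-Pearson), are given for genes with reads in both libraries and cover counting error only. A fold against 0 reads is taken against the floor of 3 reads instead.

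The proximal promoter of Nanog is printed because its capitals show, adjoining each other, the half-sites at which Pou5f1 and Sox2 bind together, the factors that MEF also carried. The sequence is the 250 bases before the first start listed for the gene in RefSeq (GRCm38.p6, chr6:122707239-122707488, plus strand), and the capitals mark the only match, on either strand, to the Oct-Sox composite motif, a Sox site CATTGT followed after 1 base of any kind by ATGC.
Nanog: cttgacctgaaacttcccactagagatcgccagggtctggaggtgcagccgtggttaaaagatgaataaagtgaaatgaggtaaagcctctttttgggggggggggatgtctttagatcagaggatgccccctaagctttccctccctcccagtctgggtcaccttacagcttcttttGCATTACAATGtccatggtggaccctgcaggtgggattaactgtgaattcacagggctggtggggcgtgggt
The match begins 72 bases before the start. Among 15092 genes of the table with a promoter sequence, 10 held this motif in the same window, or 0.0663%. It was found in 1 of 961 promoters of genes at least 4-fold higher in ESC and in 0 of 960 of those higher in MEF. The 1 promoter is that of Nanog, printed here for this motif, so the counts do not compare the 2 sets. A match describes the letters in the window and is not evidence of binding.

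MEF carried abundant RNA of all 4 classical reprogramming factors. Pou5f1, a POU homeobox protein (chromosome 17, 35506032 to 35510777), was at 602.4 in ESC and 157.7 in MEF, on 22769 and 5974 reads, 3.82 times higher in ESC (interval 3.71 to 3.93). Sox2, its partner (chromosome 3, 34649995 to 34652461), was at 212.6 and 88.2, a ratio of 2.41 (2.34 to 2.49). Klf4, a Krüppel-like zinc finger factor (chromosome 4, 55527137 to 55532475), was at 21.4 in ESC and 123.5 in MEF, 5.76 times higher in MEF (5.48 to 6.06). Myc, a growth-promoting bHLH factor (chromosome 15, 61985341 to 61990361), was at 2.82 and 153.9, 54.6 times higher in MEF (47.2 to 63.3). The MEF level of Klf4 and of Myc also lay above the range of the 4 iPSC lines, which was 70.9 to 96.5 for Klf4 and 24.2 to 57.4 for Myc. In the same MEF library Nanog, Esrrb and the other genes named with them were at or near 0. Of the 38 pluripotency genes left without Pou5f1, Sox2 and Klf4, 27 were under 1 RPKM in MEF. Of the same 38, 2 were at 10 RPKM or more there, with Jam2 highest at 13.9.

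The authors' table also gives the share of each gene's length that reads covered. For Sox2 it was 99.96% in ESC and 54.62% in MEF, although MEF had 6063 reads of the gene. For Pou5f1 it was 93.57% and 79.38%. Among the 1125 genes with at least 3000 reads in both libraries, the median difference in covered length, ESC minus MEF, was -0.02 percentage points. Of these, Sox2 had the largest loss of covered length in MEF, 45.3 points, next to Rpl37 with 44.1, and Pou5f1 with 14.2 points stood in place 6, after the translation genes Naca, Rps27a and Rpl27. Coding sequence (GENCODE M21) makes up 78.0% of the table's length of Pou5f1 and 38.9% of that of Sox2. Klf4 was covered to 98.3% in ESC and 96.5% in MEF, and Myc to 87.1% and 88.6%, with coding shares of 47.4% and 56.8%. The table does not say which bases were covered, the reprogramming method is not given, and the origin of these reads was not tested.

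**Figure D2:**
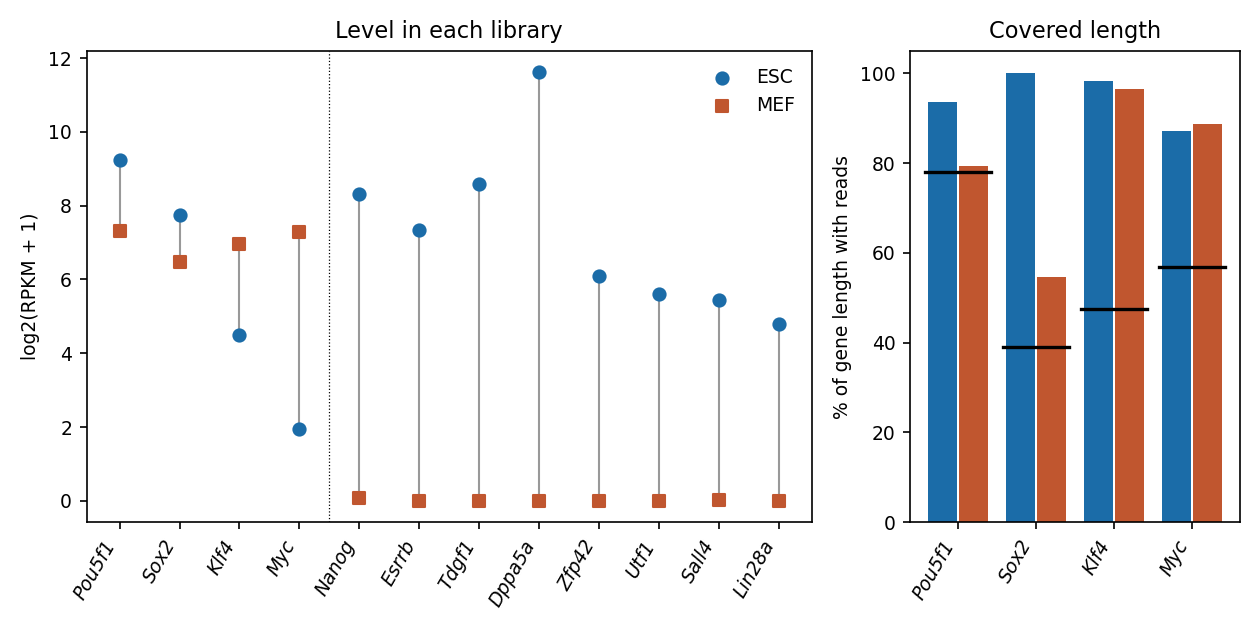
The left panel plots log2(RPKM + 1) in ESC (circles) and MEF (squares) for the 4 reprogramming factors, left of the dotted line, and 8 other pluripotency genes. The right panel plots the percent of gene length covered by reads in ESC (blue) and MEF (orange), with a black line at the coding share of the length: Sox2 was covered to 54.62% in MEF.

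Cell division genes were higher in ESC throughout their list. All 30 genes of the mitosis list were at least 4-fold higher in ESC (6.41% of all genes were), with a median difference of 3.80 against 0.00 for all genes. They ranged from 15.0 (Nuf2) to 266.6 RPKM (Top2a) in ESC and from 0.29 to 7.35 in MEF, so that the 2 ranges did not overlap. Top2a, the DNA topoisomerase of chromosome condensation, was at 266.6 and 7.35. Ccnb1, a mitotic cyclin, was at 134.2 and 2.61, and Ccnb2, its relative, at 102.1 and 2.62. Cdc20, an activator of the anaphase-promoting complex, was at 94.98 and 4.50, and Cdk1, the mitotic kinase, at 52.996 and 6.11.

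DNA replication genes followed, with 25 of 32 at least 4-fold higher in ESC, 0 higher in MEF and a median of 3.14. Mcm10 was at 52.1 and 0.63, Orc1 of the origin recognition complex at 28.7 and 0.34, Cdt1, a licensing factor, at 78.3 and 2.66, and Mcm3 of the replicative helicase at 149 and 7.29. In the repair and telomere list 19 of 32 passed 4-fold, among them Brca1 (40.8 and 1.06) of homologous recombination and Msh6 of mismatch repair (191 and 11.7). The growth marker Mki67 stood at 35.7 in ESC and 5.27 in MEF.

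Regulators of entry into the cycle did not follow as a group. Of 32 G1 regulators 6 were at least 4-fold higher in ESC and 3 in MEF, with a median of 0.25. Ccnd1, a D-type cyclin that growth factors induce (chromosome 7, 144929931 to 144939831), was at 7.47 in ESC and 387.9 in MEF, 51.9 times higher in MEF (48.4 to 55.8). Ccnd2 was at 9.85 and 156.3, while Ccnd3 was at 117.5 and 101.1. Among inhibitors, Cdkn2a, which encodes tumour suppressors of the INK4 and ARF kind, was at 25.05 and 92.2, and Cdkn1a, a p53 target, was nearly level at 151.1 and 216.3.

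Promoters of mitotic genes held CCAAT and TTTGAA more often than all promoters, though many held only 1 or neither. Because the list was made of genes known for mitosis, its shares do not compare ESC with MEF. Late cell cycle genes are known to carry repeated CCAAT boxes and a CHR element, TTTGAA, near the start, the sites of NF-Y and of the DREAM and MuvB complexes. Of the 30 mitosis genes 25 had a promoter sequence. Within 250 bases before the start, 12 of 25 (48.0%) held at least 2 CCAAT boxes on either strand, against 12.4% of all 15092 promoters, 19.6% of those of genes at least 4-fold higher in ESC and 7.81% of those higher in MEF. TTTGAA was found in 8 of 25 (32.0%) against 12.04% of all, and both features together in 7 of 25 (28.0%) against 1.53% of all. The 4 promoters below are shown because their genes are among the members described above and hold both, with CCAAT and TTTGAA (either strand) in capitals.
Ccnb2: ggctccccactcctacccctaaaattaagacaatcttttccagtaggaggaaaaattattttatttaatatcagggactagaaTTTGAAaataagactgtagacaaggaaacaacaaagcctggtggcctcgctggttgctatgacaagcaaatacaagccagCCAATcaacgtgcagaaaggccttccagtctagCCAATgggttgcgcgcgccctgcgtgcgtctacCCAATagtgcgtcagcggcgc
Cdk1: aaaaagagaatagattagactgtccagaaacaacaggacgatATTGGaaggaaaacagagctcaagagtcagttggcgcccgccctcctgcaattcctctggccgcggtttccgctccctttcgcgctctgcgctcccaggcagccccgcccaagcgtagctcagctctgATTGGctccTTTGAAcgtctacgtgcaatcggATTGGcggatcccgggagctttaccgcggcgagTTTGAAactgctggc
Top2a: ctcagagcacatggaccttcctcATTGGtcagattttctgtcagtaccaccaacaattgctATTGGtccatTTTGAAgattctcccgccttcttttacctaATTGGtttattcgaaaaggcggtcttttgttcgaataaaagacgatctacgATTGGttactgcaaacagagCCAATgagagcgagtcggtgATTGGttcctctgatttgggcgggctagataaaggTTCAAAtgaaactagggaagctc
Cdc20: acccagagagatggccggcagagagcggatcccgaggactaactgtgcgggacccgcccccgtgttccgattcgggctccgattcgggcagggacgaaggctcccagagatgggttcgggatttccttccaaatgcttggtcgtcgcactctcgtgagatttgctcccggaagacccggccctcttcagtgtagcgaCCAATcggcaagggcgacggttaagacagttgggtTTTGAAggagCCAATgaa
Positions on GRCm38.p6, all on the minus strand, were chr9:70421555-70421804 for Ccnb2, chr10:69352913-69353162 for Cdk1, chr11:99024190-99024439 for Top2a and chr4:118437344-118437593 for Cdc20. Ccnb2 held CCAAT boxes 87, 54 and 21 bases before the start, and Top2a held 6, of which those at 98, 78 and 58 were evenly spaced. Cdk1 held TTTGAA 71 and 15 bases before the start, Cdc20 at 18 and Ccnb2 at 167. Top2a held it at 179 and, on the other strand as TTCAAA, at 23. In DNA replication genes 9 of 25 promoters (36.0%) held at least 2 CCAAT boxes and 1 of 25 both features. Collagen promoters, by contrast in the same window, held at least 2 CCAAT boxes in 0 of 35. These are shares of letters, with no test.

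Over all genes past 4-fold, promoters of genes higher in ESC were richer in CpG. The observed over expected CpG ratio reached 0.6 in 60.4% of 961 promoters of genes higher in ESC, 47.4% of 960 higher in MEF and 53.7% of all. Among all genes at an RPKM of at least 1 the share was 66.9%, so both sets lay below the expressed genes as a whole. Collagen promoters reached it in 11 of 35 (31.4%) and mitosis promoters in 24 of 25 (96.0%).

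Epithelial adhesion and its regulators were higher in ESC. In this list 22 of 35 were at least 4-fold higher in ESC, 1 in MEF, and the median was 2.84. Cdh1, E-cadherin, was at 116.1 in ESC and 3.36 in MEF. Cdh2, N-cadherin and not a member of the list, was at 2.59 and 19.6. Epcam, an epithelial adhesion molecule, was at 122.8 on 7069 reads against 0.10 on 6, and the tight junction protein Cldn4 at 150.1 against 0.27. Cldn6 was at 40.2 against 0 and the keratin Krt18 at 47.5 against 0.20. Esrp1, an epithelial splicing regulator, was at 12.3 against 0.

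Metabolic lists differed, and those of glycolysis and of serine, glycine and folate enzymes had medians past 2-fold toward ESC. Of 32 glycolysis genes 12 were at least 4-fold higher in ESC and 1 in MEF (median 1.55). Slc2a3, a high-affinity glucose transporter that lies near Nanog on chromosome 6, was at 494.2 and 2.69, a ratio of 184 (164 to 207). Slc2a1 was at 181.6 and 19.7, Hk2, a hexokinase, at 60.04 and 4.94, Ldhb at 459.6 and 15.2 and Gapdh at 2592 and 379. In the list of serine, glycine and folate enzymes 13 of 24 passed 4-fold toward ESC (median 2.14). Gldc, the glycine decarboxylase, was at 85.03 with 0 reads in MEF, at least 3008-fold higher against the floor of 3 reads, and Tdh, threonine dehydrogenase, at 34.2 and 3.67. Of 35 fatty acid oxidation genes 0 passed 4-fold toward ESC and 1 toward MEF (median -0.16), and of 32 lipid synthesis genes 0 passed either way (median 0.35). In the aldehyde and redox list 2 of 32 passed toward ESC and 6 toward MEF (median 0.12, and -0.0044 after quantile normalization).

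All 77 cytosolic ribosomal protein genes were higher in ESC, by 0.60 to 2.24 on the log2 scale with a median of 1.499. They took 9.66% of ESC reads and 3.23% of MEF reads. Of them 11 passed 4-fold. After quantile normalization, which gives both libraries the same set of levels, 73 of the 77 were higher in ESC, 3 were higher in MEF and 1 was equal, the median was 0.75 and 0 passed 4-fold. Genes of oxidative phosphorylation had a median of 0.95, with 71 of 77 higher in ESC and 2 past 4-fold. Among genes common to all cells, Eef1a1 was at 8914 and 4723 and Ppia at 4804 and 1475, so the housekeeping list too had a positive median, 0.76 over 23 genes (0.44 after quantile normalization). That shift in genes of high level stands beside the metabolic and ribosomal values.

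**Figure D3:**
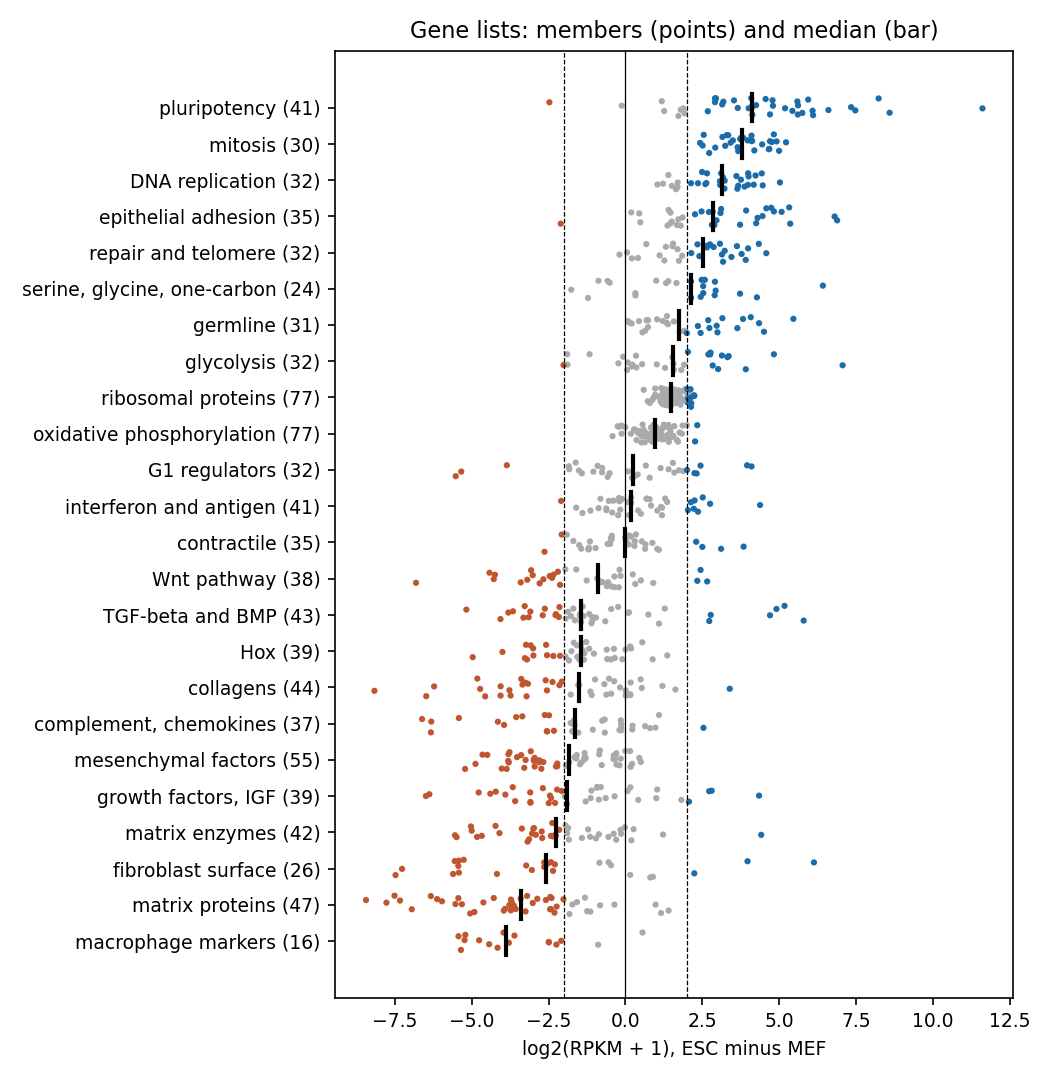
Each point is a gene of 1 of 24 lists (number of genes in brackets), placed by log2(RPKM + 1) in ESC minus MEF, and each black bar is the list's median. Dashed lines mark 4-fold: all mitosis genes lie right of the right line, and matrix and macrophage genes lie mostly left of the left one.

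Most matrix protein genes were higher in MEF. Of 47 non-collagen matrix proteins 36 were at least 4-fold higher in MEF (6.82% of all genes were) and 0 in ESC, with a median of -3.41. Dcn, the small proteoglycan decorin (chromosome 10, 97479500 to 97518163), was at 1.90 in ESC and 1005 in MEF, 530 times higher in MEF (435 to 651). Eln, elastin, was at 0.57 and 343, Mgp, the calcification inhibitor, at 22.8 and 1663 and Bgn, biglycan, at 120.4 and 1836. Of 44 collagen genes 20 were at least 4-fold higher in MEF and 1 in ESC (median -1.52). The fibrillar chains Col1a1 (chromosome 11, 94936224 to 94953042), Col1a2 and Col3a1 were at 149.0, 62.0 and 14.3 in ESC and at 904.2, 1666 and 1365 in MEF. Per length, the MEF level of Col1a2 was 26.9 times its ESC level and that of Col1a1 6.07 times. Col10a1, a collagen best known from hypertrophic cartilage, was at 0.62 and 463.3, while of the cartilage markers Acan and Matn1 had 0 reads in MEF and Col2a1 was at 1.90 in ESC and 11.9 in MEF. Col9a2 was the collagen on the ESC side, at 11.7 and 0.21.

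Matrix enzymes and their inhibitors were at least 4-fold higher in MEF for 23 of 42 genes and higher in ESC for 1 (median -2.27). Mmp2, a gelatinase, was at 16.4 and 785, Timp3 at 24.4 and 813 and Adamts2, a procollagen peptidase, at 0.69 and 78.2. Of 26 fibroblast surface and cytoskeletal genes 17 passed 4-fold toward MEF and 3 toward ESC. Those toward MEF included Ly6c1 (0.94 and 344), Cd34 (0.67 and 256), Pdgfra (0.57 and 66.0) and Ddr2, a collagen receptor (1.84 and 120). Pecam1, an adhesion molecule of endothelium that ESC also carry, was 1 of the 3 toward ESC, at 76.2 against 0.10.

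Contractile genes did not follow the fibroblast pattern. The list of 35 had a median of -0.01, with 4 at least 4-fold higher in ESC and 2 in MEF. Acta2, smooth muscle actin, was at 189.9 in ESC and 32.6 in MEF, Tagln, transgelin, at 207.5 and 41.2, Cnn1, calponin, at 32.8 and 1.35 and Des, desmin, at 14.3 and 0.77. Their spread among iPSC lines was wide, with Acta2 between 173.9 and 539.9. By sign 17 of the 35 were higher in ESC and 18 in MEF. Cav1 and Tgfb1i1 were the members at least 4-fold higher in MEF, at 82.0 and 9.42 against 12.4 and 1.48.

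Transcription factors of mesenchyme and body position were higher in MEF. Of 55 mesenchymal factors 26 were at least 4-fold higher in MEF and 0 in ESC (median -1.83). Prrx1, a homeobox factor of limb mesenchyme, was at 4.15 and 190, Tbx15 at 1.61 and 75.7, Twist1 at 6.19 and 81.9 and Snai2 at 0.77 and 23.6. In the Hox clusters 12 of 39 genes were at least 4-fold higher in MEF and 0 in ESC. All 7 genes of groups 10 to 13 in the Hoxa and Hoxd clusters passed, led by Hoxd13 at 1.56 and 79.0. Hoxa10 was at 0.36 and 20.8, Hoxd10 at 0.35 and 12.01 and Hoxa13 at 0.41 and 11.95. Of the 7 genes of groups 9 to 13 in Hoxb and Hoxc 0 passed, with a highest MEF level of 3.45. These 2 windows are unequal, since the first leaves out group 9 of Hoxa and Hoxd. Over groups 9 to 13 of all clusters 8 of 16 passed, so not every group 9 gene of Hoxa and Hoxd did. Of 11 genes of groups 5 to 8, 4 passed toward MEF, with a highest MEF level of 18.96, and of 12 genes of groups 1 to 4, 0 passed and the highest was 4.36. ESC held no Hox gene above 3.80.

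Signalling genes differed by family member. In the TGF-beta and BMP list 14 of 43 passed 4-fold toward MEF and 6 toward ESC. The Nodal feedback inhibitors Lefty1 (154.9 and 3.30) and Lefty2 (56.4 and 0.03) and Nodal itself (29.2 and 0) were among the ESC members, while the receptor Tgfbr2 (1.95 and 105.6), the ligand Bmp4 (0.65 and 22.1) and the target Id1 (9.24 and 86.4) were among those of MEF. In the Wnt list 15 of 38 passed toward MEF and 3 toward ESC. Dkk2, an antagonist, was at 0.60 and 178.8, the ligand Wnt5a at 1.37 and 45.2 and the receptor Lgr5 at 0 and 17.97. Of 39 growth factor genes 18 were at least 4-fold higher in MEF and 4 in ESC. IGF genes were among the 18, with Igfbp3 at 9.08 and 838 and Igf2 at 36.4 and 472.6. The neighbouring imprinted noncoding gene H19 was at 88.2 and 1201. Igfbp2 was higher in ESC, at 1097 and 165. The list for leukemia inhibitory factor and STAT signalling did not move as a group, with 10 of 21 higher in ESC, 11 in MEF and a median of -0.33. In it 2 passed 4-fold toward ESC, the kinases Pim1 (96.3 and 7.67) and Pim3 (83.4 and 9.02). Another 3 passed toward MEF, the receptor chains Il6st (25.2 and 113), Osmr (3.07 and 23.3) and Il6ra (0.29 and 11.5). Of all genes 6.41% and 6.82% passed in these directions.

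In some pairs of related genes the member with the higher level differed between ESC and MEF. In 29 pairs picked as ESC and MEF counterparts, 17 went in opposite directions in the order given and 12 of these also exchanged the higher level. Another 11 pairs went in the same direction and 1 went against the order. Pairs were named with earlier results known, so their count is a description. Mycn was at 33.5 and 1.00 and Myc at 2.82 and 153.9. Among DNA modifiers, Dnmt3b was at 11.4 and 0.66 and Dnmt3a at 5.84 and 20.02, and Tet1 was at 36.0 and 1.35 and Tet3 at 1.11 and 12.7. Their cofactor Dnmt3l stood at 77.4 with 2 MEF reads. In the BAF remodelling complex, Smarca2, Smarcc2 and Smarcd3 were at 45.6, 39.2 and 11.2 in MEF and at 1.69, 7.24 and 1.81 in ESC, while their relatives Smarca4, Smarcc1 and Smarcd1 led in ESC at 49.4, 53.5 and 41.1. The laminin chain Lama1 was at 8.68 and 0.40 and Lama2 at 0.76 and 14.7. Myh10 and Myh9, non-muscle myosins, went against the order given, and Itga6 and Itga5 were nearly level in both libraries.

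**Figure D4:**
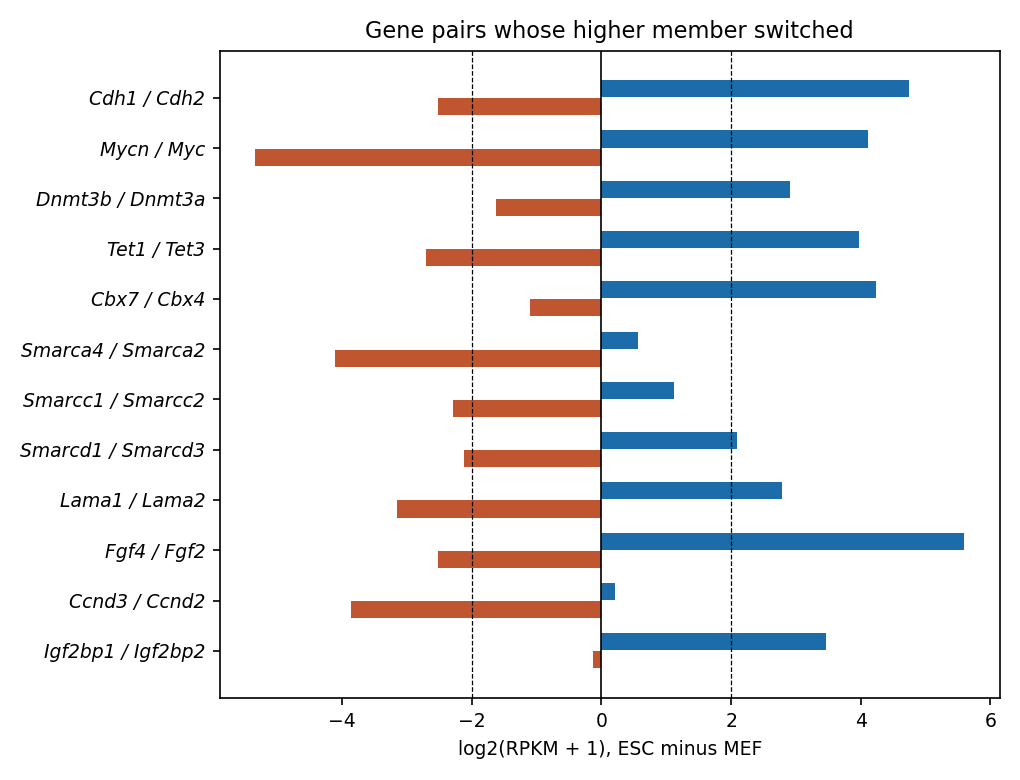
Bars give log2(RPKM + 1) in ESC minus MEF for both members of the 12 pairs that went in opposite directions and exchanged the higher level, the first named in blue and the second in orange. Myc had the most negative bar, -5.34, and Fgf4 the most positive, 5.60.

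Macrophage genes were higher in the MEF library. Of 16 macrophage genes 14 were at least 4-fold higher in MEF, with a summed level of 92.2 in ESC and 1006 in MEF. Lyz2, lysozyme, was at 11.5 and 463.3, C1qb of complement at 1.35 and 100, Csf1r at 0.38 and 23.6 and Ptprc, the common leukocyte antigen, at 0.06 and 3.52. Cd68 was higher in ESC at 55.2 against 37.2. Complement and chemokine genes, of which 13 of 37 passed 4-fold toward MEF and 1 toward ESC, moved with them: C1ra was at 0.61 and 128 and Cxcl14 at 7.48 and 362. The part of macrophage RNA in those values was not tested. In bulk RNA more cells of a type and more RNA per cell cannot be told apart.

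Some other single genes were also much higher in MEF. Slurp1, a secreted Ly6-domain protein (chromosome 15), was at 0.14 on 2 reads in ESC and at 546.2 on 8027 in MEF, the largest difference toward MEF (-8.91). Clec3b, tetranectin, was at 0.11 and 498.1, and Aldh3a1, an aldehyde dehydrogenase, at 4.51 and 728. Hbb-y, an embryonic globin, had 0 reads in ESC and 2639 in MEF (152.3 RPKM), while Hbb-bs was at 0.45, Hba-a1 at 0.13 and the red cell gene Alas2 at 0.02 in MEF. Krt14, a basal keratin, was at 29.9 in MEF, Krt5, its usual partner, at 0.13.

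On the ESC side, Rhox5 (150.6) and Trap1a (115.2), both on the X chromosome, had 0 reads in MEF. Upp1, uridine phosphorylase, was at 403.1 and 0.63, Alpl, the alkaline phosphatase long used to stain pluripotent colonies, at 176.1 and 0.05 and Chchd10 at 406.2 and 2.30. Germline genes, many of which ESC carry at low level, were at least 4-fold higher in ESC in 14 of 31 cases and in MEF in 0. Tex19.1 was at 43.2 and Dmrt1 at 21.8, both with 0 reads in MEF. Interferon genes had a median of 0.19, with 8 of 41 past 4-fold toward ESC, among them Ifitm1 (143 and 5.90) and Usp18 (125 and 17.7). The iPSC lines spanned a wide range in some of these, with Rsad2, at 22.8 and 3.99, having an iPSC range of 2.02. Of 8531 genes at 5 RPKM or more in ESC, 172 (2.02%) had at most 3 reads in MEF. Of 8929 genes at that level in MEF, 70 (0.78%) had at most 3 reads in ESC.

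ESC grew on fibroblasts, and fibroblast genes were not absent from their library. Among 91 matrix, surface and mesenchymal genes at 20 RPKM or more in MEF and at least 4-fold higher there, the ESC level had a median of 4.83% of the MEF level. The 4-fold rule keeps these shares low. They ran from 0.0989% (Col14a1) to 23.9% (Efemp2), and 14 lay under 1%. The shares differed by gene: Dcn was at 0.189%, Col3a1 at 1.05%, Col1a2 at 3.72% and Col1a1 at 16.5%. Summed over the 91 genes, reads in ESC came to 6.74% of those in MEF (interval 6.71 to 6.77). Y-linked genes in ESC stood at 9.85% (Ddx3y), 11.5% (Eif2s3y), 14.9% (Kdm5d) and 34.6% (Uty) of their MEF levels of 31.7, 30.3, 8.59 and 8.82, and Xist, the X inactivation RNA, was at 2.54 in ESC and 0.0080 in MEF. The part of feeder RNA in the ESC values was not tested.

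Among autosomes and the X chromosome, the largest median shift lay on chromosome 11. Its 1123 genes with an RPKM of at least 1 in either library had a median difference of 0.56, and 64.3% of them were higher in ESC. The 18 other autosomes had medians from -0.29 (chromosome 13) to 0.34 (chromosome 17), and the X chromosome -0.35. The Y chromosome had 6 such genes, with a median of -1.67. The shift on chromosome 11 held along its length, with medians of 0.48, 0.57 and 0.62 in its first, middle and last portion of genes by order. At 1 to 10 RPKM the median was 0.20 on chromosome 11 and -0.09 on the other autosomes, and above 100 it was 1.25 and 0.72. Set against iPSC, ESC stood 0.34 to 0.35 higher on chromosome 11 than control lines 3 and 7 and PC line 13, and -0.04 from PC line 5. No other autosome differed from any of the 4 lines by more than 0.16 in its median. All of these contrasts share the ESC or the MEF library. DNA copy number was not measured. Without chromosome 11, 1081 genes were at least 4-fold higher in ESC and 1242 in MEF.

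**Figure D5:**
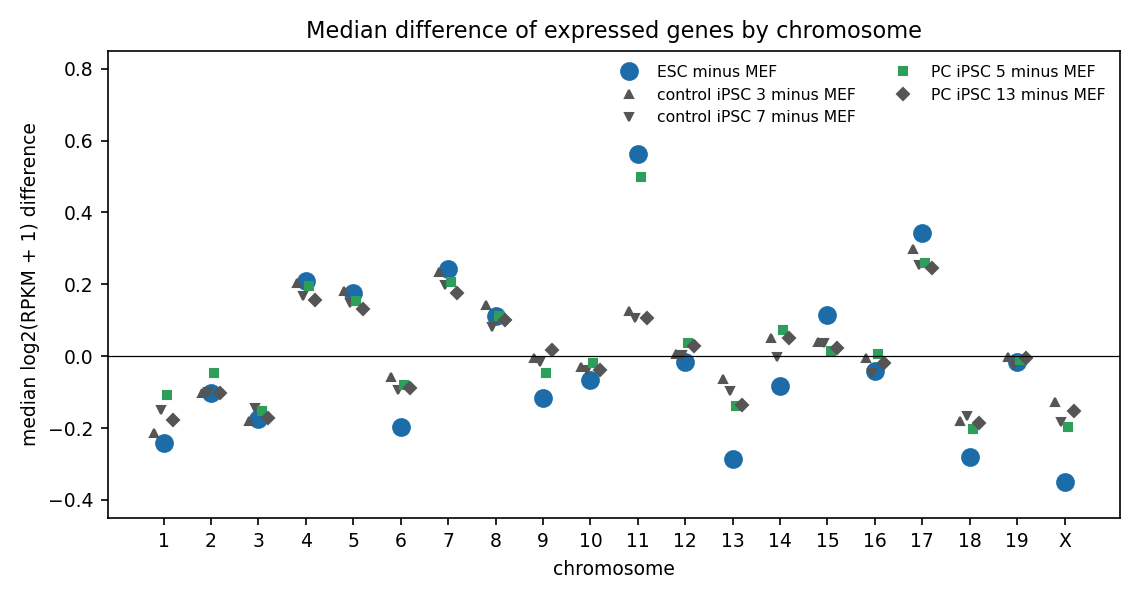
Points give, for each chromosome, the median difference in log2(RPKM + 1) from the shared MEF library over genes with an RPKM of at least 1 in ESC or MEF, for ESC (large circles) and for the 4 iPSC lines. On chromosome 11 ESC (0.56) and PC iPSC 5 (0.50) stand above the other 3 lines (0.11 to 0.13).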

How the data were processed

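Per the file headers, the authors deposited, for each library, whole-number counts of uniquely assigned reads per gene, gene length, RPKM and the percent of the gene covered. Per the submitters' processing notes, CASAVA 1.8.2 was used with build mm10. Aligner, counter, annotation and strand setting: not given in the sources used here. RPKM were used as deposited. In 28 genes the length differed between the ESC and the MEF table. Without known strand use, overlapping and near-identical genes are uncertain. Even values made up 63.0% and 67.5% of counts of 1 to 20 in ESC and MEF, against 50.4% above 20. Reads may therefore not be independent, and intervals may be too narrow. The share above 20 does not show that higher counts are free of this. A count of 0 allows 3 reads, which bounds what can be called absent.

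Positions and promoters came from RefSeq by gene ID (19239 and 15092 of 19330 genes, the first listed start each). The computation used Python 3.11.15 and TMM factors from edgeR 4.0.16 as an alternative, and was checked on simulated counts. Alternatives are in the closing section. Members, the 62 lists and the pairs were chosen with earlier results of these data known. Named genes were the 15 largest differences each way (predicted names left out), the 10 highest levels in each library, up to 6 of largest difference per list with textbook members, the pairs, and Nanog, Esrrb and Col1a1. A few genes are not reported here.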

Additional observations from a re-analysis of the deposited data

How the results depend on the processing

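No paired analysis was possible because each cell type had 1 library, and for the same reason no library could be left out. With a pseudocount of 0.1 in place of 1, 2478 genes were at least 4-fold higher in ESC and 2408 in MEF. At a 2-fold threshold the counts were 3393 and 3323, and at 8-fold 480 and 544. Under TMM scaling, quantile normalization, 1 gene length for both libraries (added after seeing the data) and without chromosome 11, both counts stayed within 1.5 times. Apart from quantile normalization, these settings could hardly have moved the counts that far. The TMM factors were close to 1, and 28 genes had unequal lengths. Chromosome 11 held 159 of the genes higher in ESC and 76 of those higher in MEF. The counts were also the same with the tables of single libraries and over genes with an RPKM of at least 1. Neither setting could change them. The single tables held the same RPKM, and with a pseudocount of 1 no gene below an RPKM of 1 in both libraries can pass 4-fold. Of 62 lists 23 had a median of at least 1 in size, and 35 when only members with an RPKM of at least 1 were used. Genes near absent from 1 library were 242, with 158 at 0 reads in the low library and 797 at an RPKM of at least 1 in the high one. The median ESC share of MEF genes was 4.96% with the pseudocount of 0.1, 4.79% under TMM and 3.62% after quantile normalization. CpG-rich promoters of genes higher in MEF were 51.6% within 150 bases. Of 290 named genes past 4-fold, 0 changed sign and 13 dropped below 4-fold after quantile normalization. With the pseudocount of 0.1 and under TMM 0 changed sign, which was fixed in advance. A pseudocount cannot change a sign, and TMM factors of 1.003 (ESC) and 0.997 (MEF) cannot reverse a 4-fold difference. The named genes were chosen largely for the size of their difference. The ribosomal protein median of 1.499 was 0.75 after quantile normalization, and 3 of the 77 genes were then higher in MEF. The median of the aldehyde and redox list, 0.12, changed sign after quantile normalization. With 1 library a side, depth limits only genes of few reads, and the spread between cultures is unknown.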
